A study of Mus musculus with 17 samples.

Results

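The enzymes described here add or remove acetyl and methyl groups on histones. They were taken by gene symbol: histone deacetylases (Hdac), lysine acetyltransferases (Kat), lysine demethylases (Kdm), the Kmt2 and Setd methyltransferase families, and Ezh1 and Ezh2. The rule found 51 genes among the 24491 symbols of the count files. No measured value entered that rule, but it was set with earlier results of these data known. RNA sequencing covered 17 libraries of wild type CD1 mice. In 7 of them the RNA came from about 10 oocytes at metaphase of the second meiotic division, with cumulus cells stripped by hyaluronidase. Oocyte donors were untreated young females of 4 weeks (n = 2 libraries), untreated aged females of 48 weeks (n = 2), and 48-week females injected with rapamycin, an inhibitor of the mTOR kinase, at 2 mg/kg, starting at week 8 and lasting 40 weeks (n = 3). The other 10 libraries came from the hippocampus of adult daughters aged 40 to 44 weeks, born to young mothers (n = 4), aged mothers (n = 3) or aged mothers given the same rapamycin course (n = 3); the daughters themselves are not labelled as treated. No vehicle is named for the untreated animals. Before oocyte collection the young females received 5 IU of each of PMSG and hCG and all 48-week females 10 IU, so age and hormone dose cannot be told apart in oocytes.

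Acetylation of histone tails loosens chromatin and is read by bromodomain proteins. Methylation acts by position: H3K4 and H3K36 marks accompany active genes, while H3K27 and H3K9 marks accompany silent ones. Growing oocytes set up their H3K4, H3K36 and H3K27 methylation with stored enzymes and stop transcribing before ovulation, so mRNA in a mature oocyte is a maternal store. In neurons, deacetylases and H3K4 methyltransferases are known for their part in activity-dependent transcription and memory.

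Libraries held 3912163 to 8334873 gene counts in oocytes and 16434398 to 20220617 in hippocampus, of which the 51 enzymes took 0.332% to 0.407% and 0.260% to 0.371%. Levels are given as CPM, the gene's count scaled to a common, TMM-normalised library size, and between genes as CPM per kilobase of annotated exon. A floor of 3 counts lay at 0.360 to 0.767 CPM in oocytes and at 0.148 to 0.183 CPM in hippocampus. Markers of the labelled tissues were present, with a summed level of 12 oocyte genes of 28820 CPM or less in rapamycin oocytes and 30938 to 33775 CPM in young and aged ones, and of 8 neuronal genes of 9673 to 11891 CPM in hippocampus. The oocyte library rapamycin 1 stood apart, with a summed oocyte marker level of 6036 CPM and correlations of log2 CPM of 0.784 and 0.805 with rapamycin 3 and rapamycin 2, against 0.960 between those. Counts and the fold changes of the leading enzymes in oocyte comparisons are therefore given with and without it. Levels per kilobase include it unless stated.

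The enzymes ranked differently in oocytes and hippocampus. In oocytes 40 of 51 had enough counts to be tested, beside 41.2% of all symbols, and 10 had a median of at least 100 CPM. In hippocampus, with deeper libraries, 50 were tested, beside 60.7% of all symbols, and 5 reached that median. All 40 enzymes tested in oocytes were also tested in hippocampus. None of the 8 enzymes highest per kilobase of exon in oocytes was among the 8 highest in hippocampus. With the length of the longest annotated transcript instead, Kat7 was among both, at rank 2 in oocytes and rank 7 in hippocampus. Across the 40 enzymes tested in both, Spearman's rho between the tissues' levels per kilobase was 0.0485, a description over genes that share the same libraries. The preparations differed, with template-switching cDNA amplified from oocytes and poly(A) RNA libraries from hippocampus, so the tissues were not tested against each other. Oligo-dT priming reads polyadenylated mRNA, and in oocytes a shorter tail and a lower level cannot be told apart.

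**Figure D1:**
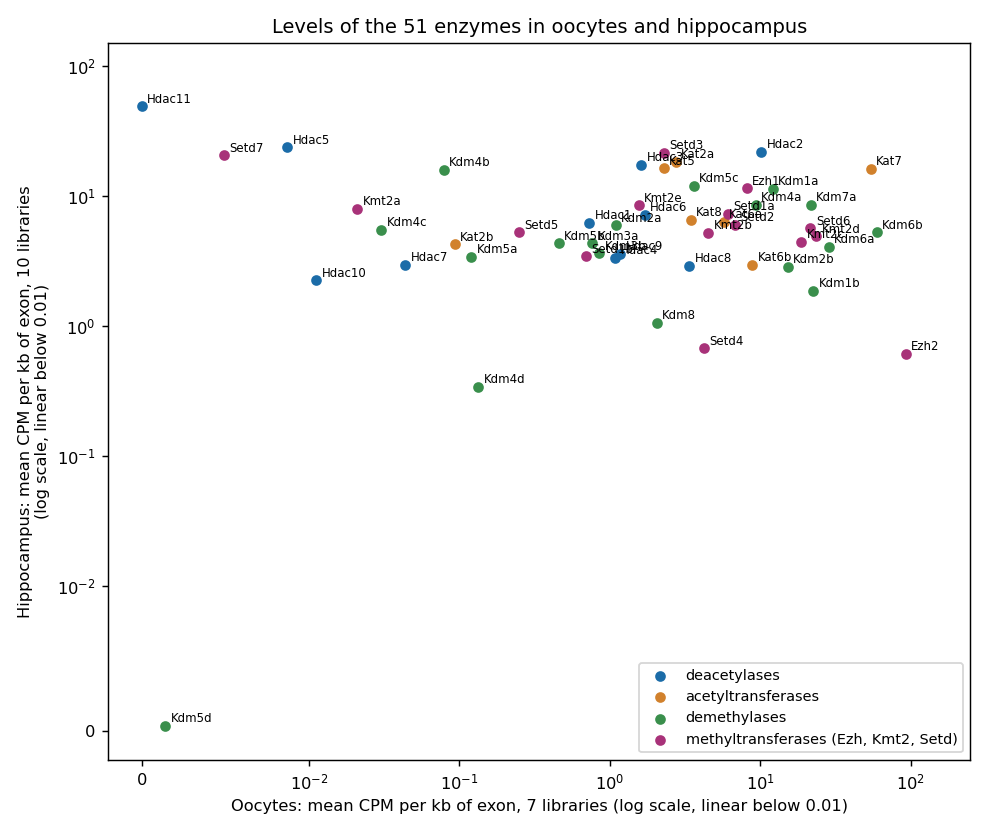
Mean level per kilobase of each of the 51 enzymes, oocytes (7 libraries) on the horizontal axis and hippocampus (10 libraries) on the vertical axis, both logarithmic above 0.01. Ezh2 lies farthest right at 92.7 CPM per kb in oocytes and 0.614 in hippocampus, while Hdac11 lies at 0 in oocytes and highest in hippocampus at 49.3.

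The clearest exchange was between the catalytic subunits of Polycomb repressive complex 2, which methylates H3K27. Ezh2 stood at 92.7 ± 12.1 CPM per kb in oocytes (SD, n = 7), the highest of all 51 and above 95.1% of tested genes, and Ezh1 at 8.12 ± 1.85. In hippocampus Ezh1 stood at 11.5 ± 1.20 CPM per kb (SD, n = 10) and Ezh2 at 0.614 ± 0.111. The ratio of Ezh2 to Ezh1 per kilobase ran from 8.24 to 14.6 over the oocyte libraries and from 0.0411 to 0.0779 over the hippocampus libraries. Every library of each tissue thus fell on its own side of 1. Ezh2 lies on chromosome 6 from 47530139 to 47595341 and Ezh1 on chromosome 11 from 101191115 to 101226463, both on the minus strand of GRCm38 and both protein-coding.

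Sequences just upstream of a RefSeq start of each gene are shown because the 2 genes encode alternative subunits of 1 complex and had opposite levels. Both are RefSeq windows on GRCm38.p6, minus strand, cut to the longest stretch before the start site that no annotated exon covers, chr6:47595059-47595183 for Ezh2 and chr11:101226464-101226713 for Ezh1. The Ezh2 stretch lies 153 to 29 bases before its RefSeq start but inside the gene as GENCODE annotates it, whose start is farther upstream. Capitals mark matches on either strand to CCAAT (2 in Ezh2) and to the NRF1 motif (1 in Ezh1).
Ezh2: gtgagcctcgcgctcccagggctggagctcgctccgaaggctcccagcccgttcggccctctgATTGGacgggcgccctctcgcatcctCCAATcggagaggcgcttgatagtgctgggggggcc
Ezh1: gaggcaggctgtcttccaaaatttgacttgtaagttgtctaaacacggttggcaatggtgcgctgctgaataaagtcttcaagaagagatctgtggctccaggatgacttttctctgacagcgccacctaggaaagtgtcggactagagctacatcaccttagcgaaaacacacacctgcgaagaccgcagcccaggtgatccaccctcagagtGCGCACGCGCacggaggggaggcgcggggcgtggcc
The Ezh1 stretch held 14 CpG dinucleotides in 250 bases and the Ezh2 stretch 11 in 125. Over whole windows of 300 bases (250 before and 50 after a start), CCAAT occurred in 37.4% and the NRF1 motif in 4.60% of all 32851 windows of the table.

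Promoter windows of the members held more CpG dinucleotides in the median than windows at large, with a wide range. The table held windows for 39 of the 51 genes, 29 of them with 1 window each. Those 29 windows carried 1 to 65 CpG dinucleotides with a median of 22, against a median of 7 over all windows. A GC box (GGGCGG, either strand) was in 16 of the 29 (55.2%) and in 35.7% of all windows. The NRF1 motif was in 6 of 29 (20.7%). TATAAA was in 2 of 29 (6.90%) and in 13.6% of all windows. A match describes the letters in the window and shows no binding.

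Among H3K27 demethylases, which undo the Polycomb mark, Kdm6b ranked 2 in oocytes at 59.5 ± 28.9 CPM per kb and Kdm6a ranked 4 at 28.6 ± 12.4. Without rapamycin 1 they were at 68.6 ± 17.4 and 31.3 ± 11 (SD, n = 6). In hippocampus they stood at 5.28 ± 1.10 and 4.08 ± 0.729. A writer of H3K27 methylation and the 2 Kdm6 demethylases were thus among the 4 highest enzymes per kilobase in oocytes.

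The H3K4 methyltransferases of the Kmt2 family differed in the same way. Oocytes held Kmt2d (23.5 ± 11 CPM per kb) and Kmt2c (18.8 ± 2.59), which methylate enhancers, and less Kmt2b (4.50 ± 1.67), the family member known for bulk H3K4 methylation in oocytes. Kmt2e, a family member with no clear methyltransferase activity, was at 1.56 ± 0.264. Kmt2a was nearly missing, with 16 counts over 7 libraries and at most 0.814 CPM in any of them. In hippocampus the 5 genes lay close together, from 4.46 ± 1.61 for Kmt2c to 8.51 ± 1.99 CPM per kb for Kmt2e, with Kmt2a at 7.98 ± 3.50, and neighbours in that order were closer than the larger of their SDs. Kmt2b exceeded Kmt2a per kilobase in the 5 oocyte libraries where Kmt2a had counts and in 0 of 10 hippocampus libraries (1 of 10 with longest-transcript lengths). Whether Kmt2d or Kmt2c was higher depended on the library and the length used, with Kmt2d higher in 4 of 7 oocyte libraries and in 3 of 7 with longest-transcript lengths. Setd1a, the catalytic subunit of another H3K4 complex, exceeded its relative Setd1b in every library of both tissues, 5.04- to 19.9-fold in oocytes and 1.84- to 2.58-fold in hippocampus. Setd7, which adds a single methyl group to H3K4 and to other proteins, had 2 counts in all oocyte libraries together and ranked 5 in hippocampus at 20.6 ± 3.17 CPM per kb.

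H3K4 demethylases fell into a flavin-dependent and an oxygenase group. Of the flavin-dependent ones, Kdm1b, which oocytes need to set maternal imprints, exceeded Kdm1a 1.34- to 2.31-fold per kilobase of exon in all 7 oocyte libraries. Per kilobase of longest transcript the ratio was 0.865 to 1.49, above 1 in 6 of 7. In all 10 hippocampus libraries Kdm1b was below Kdm1a, at a ratio of 0.142 to 0.208. The Kdm5 family, oxygenases that remove H3K4 trimethylation, was low in oocytes, where Kdm5c led at 3.62 ± 1.58 CPM per kb and Kdm5b and Kdm5a were at 0.458 ± 0.184 and 0.120 ± 0.0548. In hippocampus Kdm5c also led, at 12.1 ± 2.23, followed by Kdm5b (4.36 ± 0.883) and Kdm5a (3.43 ± 0.645). Kdm5d, the Y-linked copy of Kdm5c, had 1 count in 7 oocyte libraries and 1 count in 10 hippocampus libraries. All samples are female, and reads can be misassigned between such copies.

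Demethylases of H3K9 and H3K36 differed widely in level in oocytes. Kdm7a (21.7 ± 2.73 CPM per kb), Kdm2b (15.3 ± 5.98) and Kdm4a (9.36 ± 4.12) were the highest of them. Kdm2b brings a variant Polycomb complex 1 to CpG islands, and Kdm4a removes H3K9 and H3K36 trimethylation. Kdm4b, Kdm4c and Kdm4d had 15, 7 and 12 counts over all oocyte libraries and were not tested. In hippocampus Kdm4b was the highest of the Kdm4 genes at 15.9 ± 1.98, and Kdm4d was the lowest tested member at 0.343 ± 0.125. Setd2, the enzyme that trimethylates H3K36 and shapes the DNA methylation of oocytes, was at 6.80 ± 3.33 in oocytes and 6.02 ± 1.33 in hippocampus.

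Acetyltransferases were led by Kat7 in oocytes, at 54.4 ± 27 CPM per kb, rank 3 of all members. Without rapamycin 1 it was at 45.4 ± 14.1 (SD, n = 6) and kept that rank. Kat7 (HBO1) acetylates histones H3 and H4 at replication origins and genes. It ranked 9 in hippocampus at 16.3 ± 1.22. Kat2a, the catalytic subunit of the SAGA complex, exceeded its relative Kat2b 17.1- to 43.4-fold in the 6 oocyte libraries where Kat2b had counts, and 3.14- to 6.69-fold in hippocampus. Kat2b had only 15 counts over all 7 oocyte libraries and was not tested there, so the size of the oocyte ratio is uncertain. Kat2a and Kat5 ranked 6 and 8 in hippocampus, at 18.5 ± 1.36 and 16.4 ± 1.90. Kat6b exceeded Kat6a per kilobase in 6 of 7 oocyte libraries, rapamycin 1 being the exception, and in all 7 with longest-transcript lengths. In hippocampus Kat6b was below Kat6a in all 10 libraries per kilobase of exon, but in 6 of 10 per kilobase of longest transcript, where the ratio of Kat6a to Kat6b was 0.720 to 1.16, so their order there depends on the length used.

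Among deacetylases, 4 of the 11 had too few counts to be tested in oocytes, Hdac5, Hdac7, Hdac10 and Hdac11. Class I was present, with Hdac2 at 10.2 ± 4.90 CPM per kb and its close relative Hdac1 at 0.730 ± 0.215; Hdac2 exceeded Hdac1 in all 7 libraries, 1.48-fold in rapamycin 1 and 10.8- to 33.3-fold in the other 6. In hippocampus Hdac2 ranked 3 at 21.9 ± 2.80 and the ratio was 3.03 to 4.57. Hdac11, the only class IV deacetylase, had 0 counts among 37991140 in oocytes and was the highest member in hippocampus at 49.3 ± 7.40. Hdac5, a class IIa enzyme that shuttles out of the nucleus with neuronal activity, had 3 counts in oocytes and ranked 2 in hippocampus at 23.8 ± 5.54. Class IIb Hdac10, which acts on polyamines, and class IIa Hdac7 had 2 and 9 counts in oocytes. Hdac3, another class I enzyme, was the steadiest member in hippocampus, from 67.4 to 78.3 CPM over 10 libraries.

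Setd6 (21.6 ± 13.7 CPM per kb), a methyltransferase of non-histone proteins, completed the 8 highest in oocytes together with Ezh2, Kdm6b, Kat7, Kdm6a, Kmt2d, Kdm1b and Kdm7a. Without rapamycin 1 Setd6 was at 16.5 ± 3.65 (SD, n = 6) with rank 10, and Kmt2c entered the 8 highest. Setd3, an actin histidine methyltransferase despite its family name, ranked 4 in hippocampus at 21.7 ± 3.85. Ranks next to each other often differed by less than the spread over libraries, as for Setd3, Hdac2 and Setd7. When the longest annotated transcript replaced the union of exons, 6 of the 8 highest kept their place in the leading 8 in each tissue, and Ezh2 (222 CPM per kb) and Hdac11 (71.5) stayed first.

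The first comparison within oocytes asked what differed with maternal age. With all 7 libraries edgeR called 0 of the 40 tested enzymes between aged and young oocytes, against 0.268% of all 10083 genes (27). At an unadjusted p under 0.05 there were 2 of 40, Kmt2d and Setd2, beside 11.5% of all genes, and DESeq2 called 0 enzymes beside 2.86% of genes. The median log2 fold change of the enzymes was -0.07 against -0.01 over all genes, with 18 of 40 above 0. Without the library rapamycin 1, which takes no part in this contrast but enters the shared estimate of spread, edgeR called 3 of 40, Kmt2d and Kdm2b higher and Setd2 lower. That is 7.5% of the enzymes beside 11.4% of all 10220 genes, so the share of calls among the enzymes was not above the background.

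Kmt2d was at 244 and 305 CPM in young libraries, at 790 and 482 in aged ones and at 749, 301 and 407 in rapamycin 1 to 3. Both aged libraries lay above both young ones, and the rapamycin libraries overlapped both groups. The log2 fold change for aged against young was 1.21 ± 0.50 with all libraries (SE, edgeR adjusted p = 0.421) and 1.20 ± 0.27 without rapamycin 1 (edgeR adjusted p = 0.0268), with adjusted p from 0.0262 to 1 over the alternatives. Kmt2d lies on chromosome 15 from 98831669 to 98871204, minus strand.

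Setd2 was at 108 and 131 CPM in young libraries, 22.4 and 61.6 in aged ones and 71.0, 61.0 and 56.9 in rapamycin 1 to 3. All 5 libraries of 48-week females lay below both young ones, and the aged pair differed from each other more than the young pair did. Aged and young libraries did not overlap for 61.3% of all genes tested, and rapamycin and young libraries for 33.4%. The share of genes with all 5 libraries on 1 side was not computed. The log2 fold change for aged against young was -1.51 ± 0.52 with all libraries (SE, edgeR adjusted p = 0.332) and -1.50 ± 0.42 without rapamycin 1 (edgeR adjusted p = 0.0484). Over the alternatives the adjusted p ran from 0.0484 to 1, and the change from -2.41 to -0.95.

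Kdm2b was at 129 and 111 CPM in young libraries, 213 and 208 in aged ones, and 62.1, 232 and 209 in rapamycin 1 to 3. Apart from rapamycin 1, which was the lowest of all 7, the libraries of 48-week females lay above the young ones. Without rapamycin 1, rapamycin and young libraries did not overlap for 50.7% of all genes tested. The log2 fold change for aged against young was 0.81 ± 0.59 with all libraries (SE, edgeR adjusted p = 0.629) and 0.80 ± 0.22 without rapamycin 1 (edgeR adjusted p = 0.0467, 0.0467 to 1 over the alternatives). Kdm2b lies on chromosome 5 from 122870665 to 122989823 and Setd2 on chromosome 9 from 110532597 to 110618633. In the fit of only the young and aged libraries, Kmt2d and Kdm2b were called and Setd2 was not, 2 of 40 enzymes beside 12.5% of all genes. Summed cumulus and granulosa markers (15 genes) were at 95.7 to 107 CPM in young and 57.9 to 67.6 CPM in aged libraries, and at 56.6 to 216 CPM in rapamycin libraries. Inhbb, Amh and Foxl2 were at 0 in young libraries, and these and Inhba, Amhr2, Has2 and Ptx3 in aged ones. Their part in these differences was not tested.

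The remaining enzymes of smallest p did not pass in any fit. Kdm3a, an H3K9 demethylase, averaged 4.83 ± 0.573 CPM in young (SD, n = 2) and 8.99 ± 0.632 in aged oocytes (SD, n = 2). Kat2a averaged 7.2 ± 0.0144 and 13.8 ± 3.33 CPM. Their log2 fold changes were 0.90 ± 0.49 and 0.94 ± 0.58 with all libraries (SE) and 0.89 ± 0.42 and 0.93 ± 0.39 without rapamycin 1. Ezh2 was at 538 and 474 CPM in young libraries and at 664 and 688 in aged ones, a log2 fold change of 0.42 ± 0.31 (SE, edgeR adjusted p = 0.629) and of 0.41 ± 0.19 without rapamycin 1. The 3 rapamycin libraries, at 657, 641 and 669 CPM, also lay above both young ones. Ezh2 was thus higher in each of the 5 libraries of 48-week females. Rapamycin and young libraries did not overlap for 33.4% of all genes tested. The share of genes with all 5 libraries on 1 side of the young ones was not computed. Kdm6b was at 559 and 684 CPM in young and 387 and 380 in aged libraries, and its log2 fold change was -0.70 ± 0.92 with all libraries (SE, edgeR adjusted p = 0.803) and -0.70 ± 0.20 without rapamycin 1 (edgeR adjusted p = 0.0524). In all, 22 of the 40 enzymes (55.0%), 11 higher and 11 lower, had aged libraries that did not overlap the young ones, beside 61.3% of all genes tested.

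**Figure D2:**
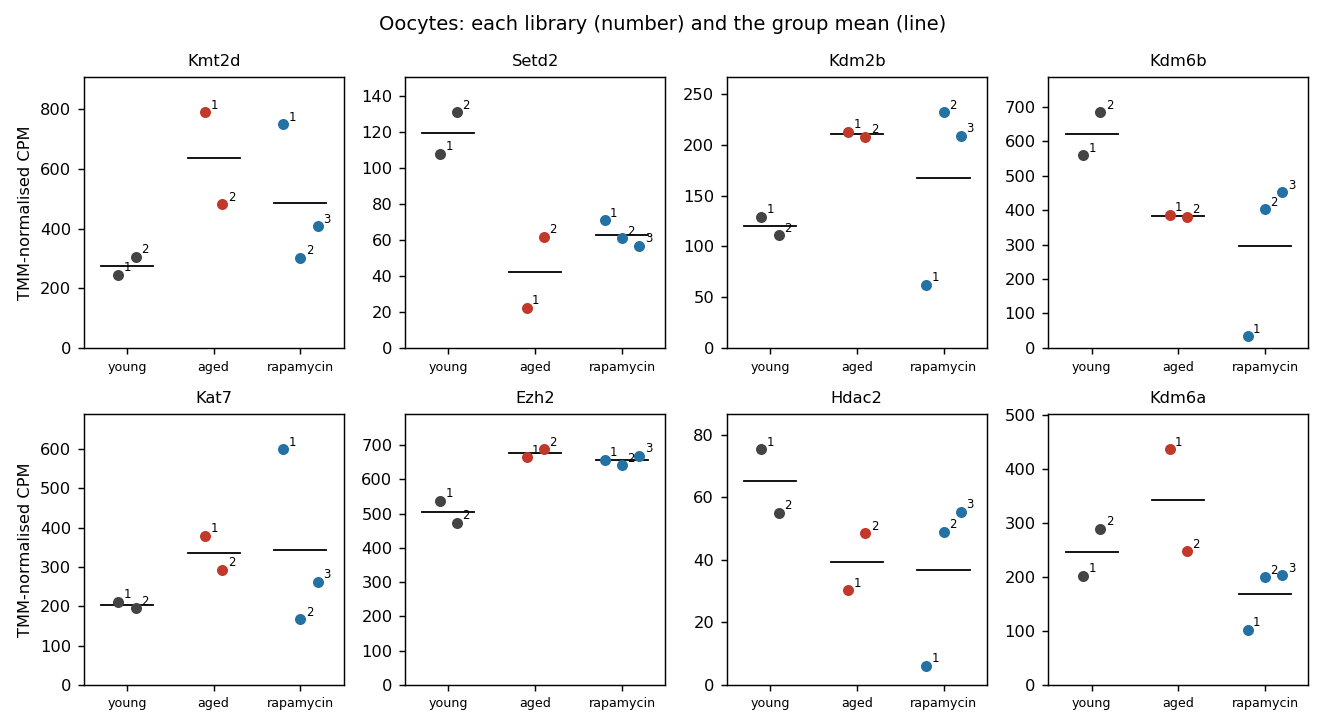
CPM of 8 enzymes in each oocyte library, with replicate numbers beside the points and a line at the group mean (young n = 2, aged n = 2, rapamycin n = 3). Ezh2, Kmt2d, Kdm2b and Kat7 were higher and Setd2, Kdm6b and Hdac2 lower in both aged than in both young libraries. Rapamycin 1 was the lowest library for Kdm2b, Kdm6b, Hdac2 and Kdm6a.

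The second comparison asked what differed with rapamycin among aged oocytes. EdgeR called 0 of 40 enzymes and 0% of all genes tested with all libraries, and again 0 of 40 without rapamycin 1, where 0.0587% of genes (6) passed. DESeq2 called 0 enzymes beside 0.109% of genes. At an unadjusted p under 0.05 there was 1 of 40, beside 5.98% of all genes. It was Kdm6a, at 436 and 247 CPM in aged and 102, 199 and 203 in rapamycin libraries. The rapamycin libraries all lay below the aged ones, the log2 fold change was -1.02 ± 0.43 (SE, edgeR adjusted p = 0.730), and without rapamycin 1 it was -0.74 ± 0.29 (edgeR adjusted p = 0.273, 0.273 to 1 over the alternatives). Kdm3a averaged 5.53 ± 0.367 CPM in rapamycin (SD, n = 3) and 8.99 ± 0.632 in aged oocytes (n = 2), without overlap. Kat6b, an H3K23 acetyltransferase, averaged 169 ± 28.1 and 118 ± 3.54 CPM, also without overlap, and Hdac1 3.02 ± 0.199 and 1.64 ± 0.730. Hdac1 rested on few counts, 12, 19 and 20 in rapamycin 1 to 3 and 8 and 5 in aged 1 and 2. For Kdm3a, Kat6b and Hdac1 the log2 fold changes were -0.70, 0.51 and 0.88 with all libraries and -0.66, 0.47 and 0.87 without rapamycin 1. Kat2a was at 16.2 and 11.5 CPM in aged and at 13.2, 5.21 and 6.63 in rapamycin libraries, where rapamycin 1 alone overlapped the aged ones. Its log2 fold change was -0.74 ± 0.52 with all libraries (SE, edgeR adjusted p = 0.740) and -1.19 ± 0.40 without rapamycin 1 (edgeR adjusted p = 0.230, 0.230 to 1 over the alternatives). Groups did not overlap for 7 of 40 enzymes (17.5%) beside 25.6% of all genes, and without rapamycin 1 for 18 of 40 (45%) beside 45.9%.

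Against young oocytes, rapamycin oocytes likewise had 0 of 40 enzymes called, beside 0.426% of all genes, and 0 of 40 without rapamycin 1, beside 2.97%. An unadjusted p under 0.05 was reached by 0 of 40 enzymes with all libraries, beside 8.91% of all genes, and DESeq2 called 0 enzymes beside 2.41% of genes. Setd2 came first, at 63.0 ± 7.21 CPM in rapamycin (SD, n = 3) and 119 ± 16.6 in young oocytes (SD, n = 2). Its log2 fold change was -0.92 ± 0.46 (SE, edgeR adjusted p = 0.594) and -1.0 ± 0.41 without rapamycin 1 (edgeR adjusted p = 0.267, 0.267 to 0.999 over the alternatives), and the groups did not overlap. Kmt2d was at 0.82 ± 0.47 (edgeR adjusted p = 0.622) with overlapping libraries, and at 0.38 ± 0.27 without rapamycin 1 (edgeR adjusted p = 0.547, 0.503 to 0.999 over the alternatives). Kmt2b (-0.66 ± 0.41), Hdac8 (0.99 ± 0.64) and Kat7 (0.75 ± 0.54) followed, all with overlapping libraries and edgeR adjusted p from 0.654 to 0.691. Without rapamycin 1 Hdac8 was at 0.20 ± 0.37 and Kat7 at 0.09 ± 0.26, so 1 library carried both values, and Kmt2b was at -0.58 ± 0.36. Both comparisons with young oocytes use the same 2 young libraries, and both comparisons with aged oocytes the same 2 aged libraries. Groups did not overlap for 7 of 40 enzymes beside 33.4% of all genes, and without rapamycin 1 for 13 of 40 (32.5%) beside 50.7%.

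Rapamycin 1 was set apart in the enzymes as it was over all genes. Of the 40 tested, 10 lay above and 14 below the range of the other 6 libraries, and 16 within it; over all genes tested 65.6% lay outside. Kdm6b was at 34.1 CPM there and at 380 to 684 CPM in the others. Hdac2 was at 6.18 against 30.2 to 75.4 CPM and Kdm5c at 4.84 against 21.1 to 36 CPM. Hdac3 and the oxygenase Kdm8 had 0 counts among 4388650, where the other libraries held 4.62 to 11.9 and 3.70 to 7.42 CPM. The levels that were higher there included Kat7 (600 against 167 to 380 CPM), Setd6 (98.4 against 18.9 to 38.2), Hdac9 (47.0 against 7.55 to 23.4) and the X-linked class I deacetylase Hdac8 (37.4 against 9.54 to 21). Ezh2, Kdm1a and Kmt2c were within the range of the other libraries. The enzymes named for their place in rapamycin 1 were chosen after their values were seen.

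Partner genes were taken from lists of subunits and neighbours: Polycomb 2, H3K4 methyltransferase (COMPASS), deacetylase and acetyltransferase complexes, other methyltransferases and demethylases, and bromodomain readers. The files held 138 of them, 123 were tested in oocytes, and edgeR called 0 in each of the 3 oocyte comparisons with all libraries. Without rapamycin 1, 10 were called higher and 1 lower in aged than in young oocytes, out of 123, beside 11.4% of all genes. Of 13 COMPASS genes 2 rose, the shared subunit Wdr5 (1.00 ± 0.25 on the log2 scale, edgeR adjusted p = 0.0351) and the menin gene Men1 (1.35 ± 0.33). Of 9 Polycomb 2 partners 2 rose, the histone chaperone Rbbp4 (1.21 ± 0.33) and Phf1 (1.64 ± 0.43), which helps the complex bind chromatin, while 7 of the 9 were below 0. Among deacetylase partners the NuRD subunit Gatad2a rose (0.90 ± 0.22) and the methyl-CpG reader Mbd2 fell by 1.73 ± 0.49 (edgeR adjusted p = 0.0498). Ep400 (1.37 ± 0.36), the arginine methyltransferase Prmt5 (1.47 ± 0.31), Prdm2 (1.12 ± 0.29) and Jmjd8 (4.21 ± 0.88, from 0.276 CPM in young oocytes) rose as well. These lists were drawn up with earlier results of the same data known.

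In hippocampus the question was whether a mother's age or her rapamycin course left a difference in the adult daughter. EdgeR called 0 of 50 enzymes in each of the 3 comparisons, beside 0.0471% of all 14877 genes for aged against young mothers (7), 0% for rapamycin against aged (0) and 0.0538% for rapamycin against young (8). DESeq2 called 0 enzymes as well, beside 0.35%, 0.0874% and 0.242% of genes. Unadjusted p in edgeR fell under 0.05 for 1, 3 and 1 of the 50, beside 3.51%, 4.52% and 3.63% of all genes. Of the 134 partner genes tested, 0 were called in any comparison. In bulk tissue fewer cells of a type and less RNA per cell cannot be told apart.

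The enzymes nonetheless lay to one side of 0. For aged against young mothers the median log2 fold change was -0.09 and 14 of 50 were above 0, while the median over all genes was -0.01. For rapamycin against aged mothers the median was 0.15 with 39 of 50 above 0, against 0.02 over all genes, and for rapamycin against young mothers 0.07 with 36 of 50 above 0, against 0.01. These comparisons share groups, so the signs are not independent. Single libraries moved the values. For rapamycin against aged the median was 0.30 without rapamycin 2 and 0.06 without rapamycin 1. For rapamycin against young it was 0.22 without rapamycin 2, and it fell to -0.02 without rapamycin 1 and to -0.01 without young 2, so its sign rested on single libraries. For aged against young it was -0.14 without young 2 and -0.02 without young 3.

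Enzyme levels moved with the level of cytosolic ribosomal protein mRNA in each library, measured over 76 genes and centred on 0. The H3K4 methyltransferase Kmt2a was at 142, 63.9, 194 and 125 CPM in young 1 to 4, at 99.9, 96.0 and 108 in aged 1 to 3, and at 238, 69.5 and 196 in rapamycin 1 to 3. The ribosomal level of the same libraries was -0.22, 0.66, -0.52 and -0.09, then 0.47, 0.35 and 0.04, then -0.89, 0.61 and -0.41 log2 units. So the lowest Kmt2a levels were in young 2 and rapamycin 2, where ribosomal protein mRNA was highest, and the highest Kmt2a level was in rapamycin 1, where it was lowest. The 3 groups overlapped. Reads without a unique alignment made up 5.1% and 5.09% of counts in rapamycin 1 and young 3. They made up 7.05%, 7.22% and 8.01% in rapamycin 2, young 2 and aged 1. The counting step placed other reads in no annotated feature. These were at 15.4% and 15.1% in the first 2 libraries and at 12.4%, 13.1% and 14.8% in the others. Whether such technical differences played a part in the enzyme levels was not tested.

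Other large chromatin enzymes ran the same way. Kmt2c was at 55.9 CPM in young 2 and 54.0 in rapamycin 2, and at 129 in young 3 and 146 in rapamycin 1. Kmt2d was at 60.2 and 50.7 CPM in the first 2 of these libraries and at 157 and 131 in the others, and Setd2 at 46.5 and 45.4 against 83.5 and 86.2. Per log2 unit of ribosomal level, log2(CPM + 1) changed by -1.18 for Kmt2a, -0.94 for Kmt2c, -0.92 for Kmt2d and -0.60 for Setd2. Slopes lay below 0 for 40 of the 50 enzymes (80.0%) with a median of -0.35, while over all genes tested 50.5% lay below 0 and the median was -0.01. Above 0 were 10, among them Kat2b (0.52), Hdac8 (0.51), Hdac5 (0.48), Kat8 (0.32), Setd3 (0.31), Hdac11 (0.24) and Hdac2 (0.20). Hdac5 was at 249 CPM in young 2 and 311 in rapamycin 2, and at 179 in young 3 and 161 in rapamycin 1. The 10 were 5 deacetylases, 3 acetyltransferases, Setd3 and Setd6, and no tested Kdm, Kmt2 or Ezh gene was among them. These genes were picked after their values were seen, and a slope is a description over 10 libraries.

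**Figure D3:**
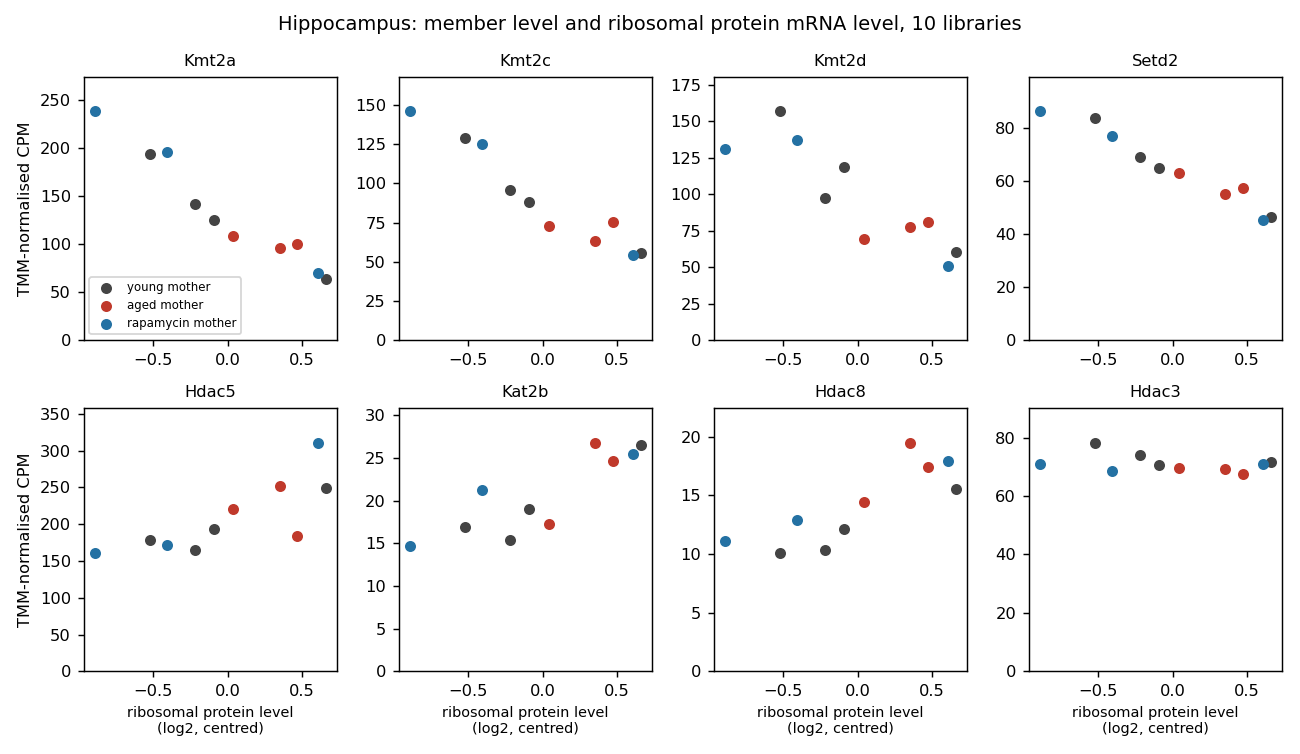
CPM of 8 enzymes in the 10 hippocampus libraries (vertical axes, from 0) against the mean ribosomal protein mRNA level of the library (horizontal axes, log2 units centred on 0), coloured by the mother's group. Kmt2a falls from 238 to 63.9 CPM from left to right, Hdac5, Kat2b and Hdac8 rise, and Hdac3 stays between 67.4 and 78.3 CPM.

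Slope went with transcript size. Over the 50 enzymes the correlation of slope with the log of exon length was -0.62, and over the 14437 tested genes with an annotated length it was -0.51, so this held for genes at large. The enzymes had a median exon length of 6874 bases and the tested genes 4452. Both correlations are across genes, which are not independent and share the same 10 libraries. In oocytes the correlation over the enzymes was 0.13, and 52.5% of their slopes lay below 0 beside 54.0% over all genes tested.

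**Figure D4:**
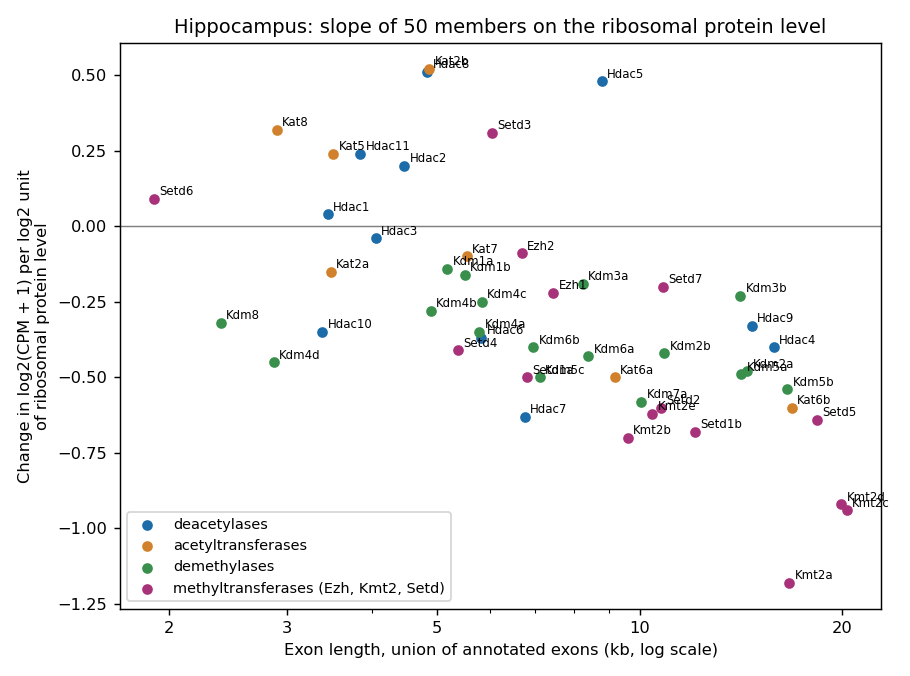
Change in log2(CPM + 1) per log2 unit of ribosomal protein level (vertical axis) against exon length in kilobases (horizontal axis, log scale) for the 50 enzymes tested in hippocampus. Kmt2a, Kmt2c and Kmt2d, among the longest, have slopes of -1.18, -0.94 and -0.92, and the enzymes above 0 are all shorter than 10 kb.

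Upstream sequences of 3 enzymes that moved together in these libraries are shown, from RefSeq windows on GRCm38.p6 without annotated exons: chr9:44881297-44881539 (minus strand) for Kmt2a, chr15:98871206-98871455 (minus strand) for Kmt2d and chr9:110532347-110532596 (plus strand) for Setd2. Capitals mark the GC box GGGCGG on either strand, each match counted where matches overlap, 4 in Kmt2a, 4 in Kmt2d and 7 in Setd2.
Kmt2a: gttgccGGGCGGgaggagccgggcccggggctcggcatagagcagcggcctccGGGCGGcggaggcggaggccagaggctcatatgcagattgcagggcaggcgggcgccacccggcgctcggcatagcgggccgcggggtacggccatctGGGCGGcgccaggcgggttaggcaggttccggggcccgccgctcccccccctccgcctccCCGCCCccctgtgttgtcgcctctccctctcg
Kmt2d: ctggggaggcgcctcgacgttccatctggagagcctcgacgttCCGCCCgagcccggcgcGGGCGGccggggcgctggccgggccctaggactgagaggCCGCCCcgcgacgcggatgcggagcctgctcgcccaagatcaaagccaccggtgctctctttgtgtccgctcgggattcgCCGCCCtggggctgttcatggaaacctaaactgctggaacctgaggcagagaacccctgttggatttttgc
Setd2: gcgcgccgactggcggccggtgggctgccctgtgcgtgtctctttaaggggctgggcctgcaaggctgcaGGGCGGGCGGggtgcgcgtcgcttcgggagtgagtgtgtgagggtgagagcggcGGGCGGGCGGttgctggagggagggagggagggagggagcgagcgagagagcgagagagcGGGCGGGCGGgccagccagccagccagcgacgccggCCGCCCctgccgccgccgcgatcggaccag
The stretches held 29, 26 and 31 CpG dinucleotides. None of the 3 held a match to CCAAT. A match to TATAAA or to the NRF1 motif was likewise not among their letters.

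With the ribosomal protein level added to the edgeR model the medians lay near 0. The median log2 fold change became 0.04 for aged against young mothers, -0.02 for rapamycin against aged and 0.01 for rapamycin against young, with 29, 21 and 27 of 50 above 0. The first 2 medians changed sign. EdgeR still called 0 of 50 enzymes in each. Unadjusted p in edgeR fell under 0.05 for 3, 3 and 4 of the 50, beside 862, 850 and 1362 of the 14877 genes. The ribosomal level was itself uneven over the groups. It was 0.47, 0.35 and 0.04 in aged 1 to 3 and -0.89, 0.61 and -0.41 in rapamycin 1 to 3. In young 1 to 4 it was -0.22, 0.66, -0.52 and -0.09. Where group and ribosomal level go together, this model cannot tell them apart. Single enzymes moved either way when the covariate was added. For aged against young mothers Kdm6b went from 0.25 to 0.47 ± 0.14 and Kmt2d from -0.51 to -0.10 ± 0.19. For rapamycin against aged Kdm7a went from 0.02 to -0.44 ± 0.16. Summed markers of other cell types also differed between libraries of 1 group: oligodendrocyte lineage genes (5) ran from 2738 to 8708 CPM in daughters of young mothers, 3658 to 8939 in those of aged mothers and 2447 to 8778 in the rapamycin group, and choroid plexus genes (5) from 28.6 to 85.0, 31.8 to 65.1 and 23.1 to 47.2 CPM. Their part in the enzyme levels was not tested.

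**Figure D5:**
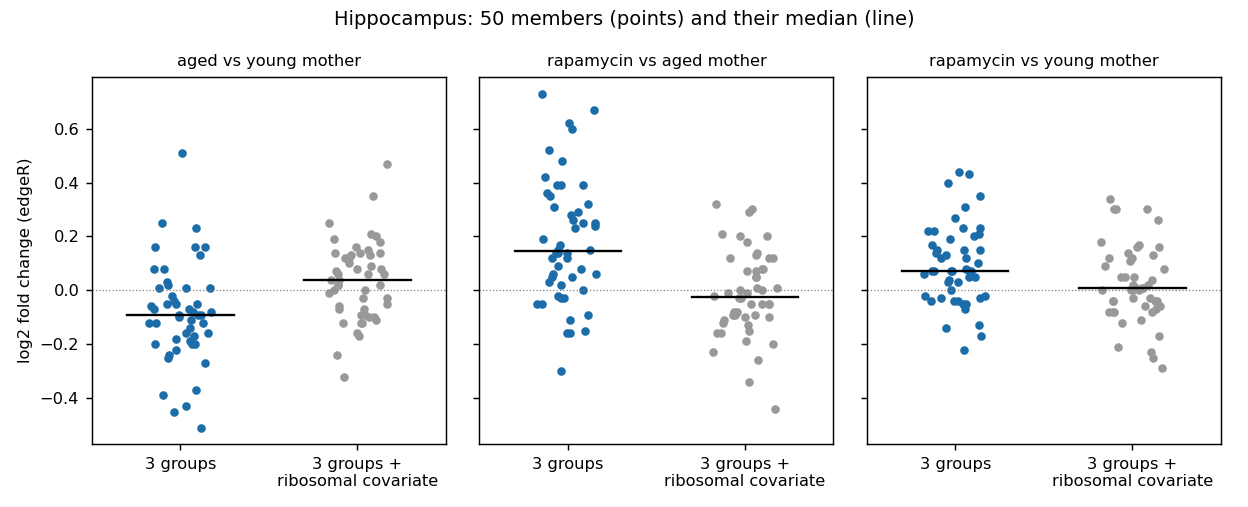
Log2 fold changes (edgeR) of the 50 enzymes in the 3 hippocampus comparisons, each point 1 enzyme and the line their median, in the model of groups alone and in the model with the ribosomal protein covariate. The median for rapamycin against aged mothers moves from 0.15 to -0.02.

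The enzymes of smallest p in hippocampus are given although none passed. For aged against young mothers Hdac8 came first, at 10.3, 15.5, 10.1 and 12.1 CPM in young 1 to 4 and 17.4, 19.5 and 14.4 in aged 1 to 3. Only young 2 reached into the aged range. The log2 fold change was 0.51 ± 0.21 (SE, edgeR adjusted p = 0.990), and 0.35 ± 0.12 with the ribosomal covariate (edgeR adjusted p = 0.657, 0.428 to 1 over the alternatives). Hdac7 (-0.45 ± 0.27), Hdac10 (-0.43 ± 0.27), Kat2a (-0.16 ± 0.10) and Kmt2d (-0.51 ± 0.36) followed with the same edgeR adjusted p, and with the covariate they were at -0.24 ± 0.19, -0.32 ± 0.26, -0.12 ± 0.08 and -0.10 ± 0.19. Groups did not overlap for 1 enzyme of 50, Hdac3 (2.00%), beside 5.44% of all genes.

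For rapamycin against aged mothers Hdac7, Setd7 and Hdac4 had the smallest p, and none passed. The other class IIa deacetylases were at -0.03 ± 0.26 (Hdac5) and 0.09 ± 0.18 (Hdac9). Setd7 was at 166, 231 and 214 CPM in aged 1 to 3 and at 263, 275 and 242 in rapamycin 1 to 3. All rapamycin libraries lay above the aged ones and above those of young mothers, at 205, 179, 236 and 216 CPM. The log2 fold change was 0.35 ± 0.16 against aged (SE, edgeR adjusted p = 0.796) and 0.31 ± 0.14 against young (edgeR adjusted p = 0.999), and with the covariate both were 0.30. Hdac4, whose loss from the nucleus of neurons accompanies activity, was at 43.9, 43.4 and 58.3 CPM in aged 1 to 3 and at 70.2, 54.4 and 66.3 in rapamycin 1 to 3. It had a log2 fold change of 0.39 ± 0.17 against aged and of 0.40 ± 0.16 against young mothers, with edgeR adjusted p of 0.796 and 0.999, and with the covariate of 0.21 ± 0.11 and 0.34 ± 0.09. Hdac7 (0.67 ± 0.28), Setd1a (0.39 ± 0.20) and Setd1b (0.52 ± 0.27) were at 0.32, 0.12 and 0.14 with the covariate. Against young mothers the other enzymes of smallest p were Setd1b (0.43 ± 0.25), Ezh1 (0.20 ± 0.13) and Hdac2 (-0.22 ± 0.14), at 0.30, 0.16 and -0.17 with the covariate. Groups did not overlap for 3 of 50 enzymes for rapamycin against aged (6%), Kat2a and Setd7 higher and Hdac1 lower, beside 9.89% of all genes. Against young mothers Setd7 alone did not overlap (2.00%), beside 5.03%.

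Oocytes and hippocampus answer different questions, the female's own age and her mother's age, and no difference between them was tested. For the 3 enzymes called in oocytes without rapamycin 1, the hippocampus values for aged against young mothers were -0.51 for Kmt2d, -0.24 for Kdm2b and -0.18 for Setd2 on the log2 scale, none past the threshold (edgeR adjusted p = 0.990 for each).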

How the data were processed

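The deposited files hold whole-number counts of reads per gene symbol for each library, made by the authors with STAR and HTSeq on mm10, per the submitters' processing notes; no source used here gives versions, annotation or strand setting, and reads of overlapping or near-identical genes cannot be told apart. The 5 summary rows of each file were left out (17.5% to 26.5% of counts). Each tissue was fitted on its own with edgeR 4.0.16 (R 4.3.3, filterByExpr, TMM, quasi-likelihood F-test over 3 groups, Benjamini-Hochberg over all genes tested, threshold 0.05). DESeq2 1.42.0, other filters and scalings, left-out libraries and a ribosomal protein covariate were alternatives. The edgeR step was tested on simulated data. Exon lengths and coordinates came from GENCODE M21 (51 members matched), figures from matplotlib 3.10.9. Named were members called in any comparison, the 5 of smallest p in each, the 8 highest per kilobase, and fixed pairs and families. Members and lists were chosen with earlier results of these data known. Whether each library had its own animals is not labelled, and p-values reflect only library-to-library spread, which may be technical. Replicates differed by more than sampling noise (chi-square per degree of freedom at least 12.8). Counting limits cover counting error only. Results for 1 partner gene are not reported here.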

Additional observations from a re-analysis of the deposited data

How the results depend on the processing

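Of 457 alternative values of the 31 named log2 fold changes, 451 kept their direction and side of the threshold and 5 newly passed it, all for aged against young oocytes (Kmt2d, Kdm2b and Setd2). Enzymes called for aged against young oocytes numbered 0 with all libraries, 2 in the fit of those 2 groups only, and 0 to 3 when each library was left out in turn, the 3 without rapamycin 1; the biological coefficient of variation was 49.5% with that library and 28.1% without it. Kmt2b for rapamycin against young oocytes was at -0.66 with all libraries and ran from -1.07 (without young 1) to 0.02 (without young 2) when each library was left out. With a replicate block 0 enzymes were called in each of the 6 comparisons. Same-numbered libraries correlated at -0.101 to 0.00975 in oocytes and -0.233 to 0.709 in hippocampus. They correlated best with their own number in 1 of 12 and 9 of 18 matches. No label pairs the libraries, and the numbers were not taken as pairs. In hippocampus these matches cannot decide whether same-numbered libraries share structure, because no level for unrelated libraries was computed. Genes called over the whole table ranged, over left-out libraries, from 0 to 1168 (27 with all), 0 to 6 (0) and 0 to 304 (43) in oocytes for aged against young, rapamycin against aged and rapamycin against young, and from 0 to 15 (7), 0 to 1 (0) and 2 to 10 (8) in hippocampus. Under the other settings they ranged from 1 to 1177, 0 to 11 and 0 to 243 in oocytes and from 2 to 52, 0 to 13 and 4 to 36 in hippocampus. With the longest transcript as length, 9 of 16 levels per kilobase moved by more than their SD. The log2 of the median Kmt2d to Kmt2c ratio per kilobase turned from 0.25 to -0.18 in oocytes and from 0.13 to -0.30 in hippocampus with the longest transcript, and to -0.10 in oocytes without rapamycin 1; the ratios, levels and overlaps under these settings were added after seeing the data.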
